A study of Mus musculus with 12 samples.

Results

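Visceral white adipose tissue of mice that overexpressed TGF-b1 in the heart was compared with that of mice without the transgene, both on a high-fat diet. The comparison took in all libraries titled for these groups, 3 transgenic and 3 wild type, which are 6 of the 12 libraries of the series, and all genes counted in them. The transgenic mice were FVB/N animals that carried the tetracycline transactivator (tTA) under the αMHC promoter, which is active in heart muscle, together with an αMHC-driven TGF-b1 transgene. The mice called wild type here were littermates with the αMHC tTA driver alone, so the driver is common to both groups. The high-fat diet held 60% of its energy as fat (5.21 kcal/g) and was given to mice of 8 to 10 weeks for either 2 or 6 weeks, and the labels do not tie a duration to a library. The other 6 libraries came from the same genotypes on chow with 17% of its energy as fat (3.1 kcal/g), and they enter below only as the control-diet values of the same contrast. The title of the series names resistance to obesity and adipocyte size and function as its subject. Whether every library came from its own mouse is not stated, so the p-values below rest on a spread between libraries that may not be that between mice. Libraries of a high-fat group differed by more than repeated sequencing of the same library would give (chi-square per degree of freedom 20.6 to 47.7).

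TGF-b1 is secreted in a latent complex, is freed outside the cell, and signals through a pair of receptor kinases to Smad transcription factors, which raise transcription of matrix and feedback genes. In white fat the pathway is known for restraining the formation of adipocytes and for promoting fibrosis. Visceral fat cells store triglyceride, release fatty acids by lipolysis and burn part of them in mitochondria, and a high-fat diet enlarges the cells and brings in macrophages. The sheet of mesothelial cells that covers visceral fat is part of what is dissected.

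The 6 libraries held 20.7 to 21.3 M counts over genes. Genes detected numbered 23262 to 23398 in transgenic and 23615 to 23679 in wild-type libraries. The 50 most abundant genes took 27.55% to 28.68% of counts in transgenic and 24.57% to 27.53% in wild-type libraries. The factors that correct for composition were 0.968 to 0.992 in transgenic and 1.017 to 1.071 in wild-type libraries. These measures thus separated the genotypes, and their part in the differences below was not tested. Adipocyte markers were high in each: the 15 genes of that list, among them Adipoq and Plin1, were all above 1 CPM (counts scaled to a common library total and corrected for composition) and summed to 51535 to 54306 CPM in transgenic and 47856 to 52851 CPM in wild-type libraries. On the first principal component of the 6 (27.1% of variance) transgenic replicate 3 stood far apart at a score of 51.3, and the other transgenic libraries (-0.17 and -8.12) lay narrowly above the wild-type libraries (-9.54 to -19.7). The next component (22.1%) set wild-type replicate 3 and transgenic replicate 1 against wild-type replicates 1 and 2 and did not separate the genotypes. Correlations of log CPM were 0.976 to 0.984 between libraries of a genotype and 0.974 to 0.984 between genotypes. Wild-type replicate 3 held skeletal muscle transcripts: the 13 measured muscle genes summed to 708 CPM there and to 9.85 to 105 CPM in the other 5 libraries. None of the 16 listed muscle markers was at 0 in all 6 libraries. The mean of log2(CPM + 1) over the 9 measured liver genes was highest in wild-type replicate 2, at 5.53, against 3.28 to 3.72 in transgenic libraries. Their summed levels overlapped, at 1988 to 3447 CPM in transgenic and 1752 to 2428 CPM in wild-type libraries. The median log2 difference of the liver list, transgenic minus wild type, was -2.17, and -0.44 without wild-type replicate 2. Genes of the mitochondrial genome took 6.17% to 8.97% of counts in transgenic and 4.71% to 6.77% in wild-type libraries.

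No gene passed the test. Of 16550 genes, edgeR's quasi-likelihood test with Benjamini-Hochberg adjustment called 0 (0%) at an adjusted p below 0.05, and the smallest adjusted p was 0.712. At an unadjusted p below 0.05 there were 1114 genes (6.73%), 621 higher (3.75%) and 493 lower (2.98%) in transgenic tissue, where the threshold alone would give 828 of this many genes. An adjusted p is the expected share of false calls among genes at least as extreme. The median log2 difference over all genes was 0.0015. Differences are given below as transgenic minus wild type on the log2 scale with a standard error (SE) derived from the test statistic. None of them passed edgeR's test on this diet. As a description, 1245 genes (7.52%) had all 3 transgenic libraries above all 3 wild-type libraries, and 1066 genes (6.44%) had all 3 below. These shares serve as the background for the counts of non-overlapping genes that follow. With 1 library left out such a count can only stay or rise, for a list as for all genes. The shares of all genes then ran from 11.7% to 13.4% above and from 10.5% to 13.3% below.

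Other tools called more. DESeq2 on the 6 libraries alone called 73 of 13166 genes given an adjusted p (0.554%), 49 higher (0.372%) and 24 lower (0.182%), and the authors' deposited table for this contrast holds the same 73. All 73 had groups that did not overlap, and 61 had an unadjusted edgeR p below 0.05. Both figures come from the counts that gave the calls, so neither is separate support for them. DESeq2 on all 12 libraries called 9, edgeR without a filter on low counts called 5, and limma-voom with quality weights called 0. Leaving out 1 of the 6 libraries at a time moved the DESeq2 count from 73 to between 29 (without wild-type replicate 2, 18 of them among the 73) and 195 (without transgenic replicate 2, 62 of them among the 73). Only 13 of the 73 were called in each of the 6 reduced fits. The 9 of these that were higher are Acacb, Aldh1a7, Aldh1l1, Chdh, Clstn3, H1f10, Pnpla2, Slc36a2 and Tfr2, and the 4 that were lower are Cacna1e, Fgl2, Slc39a8 and Slpi. The leading genes described next are the 12 with the smallest edgeR p in each direction among annotated genes whose groups do not overlap and reach a mean of 1 CPM in one of them. All 24 had an adjusted p of 0.712, and 14 of them are DESeq2 calls.

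**Figure D1:**
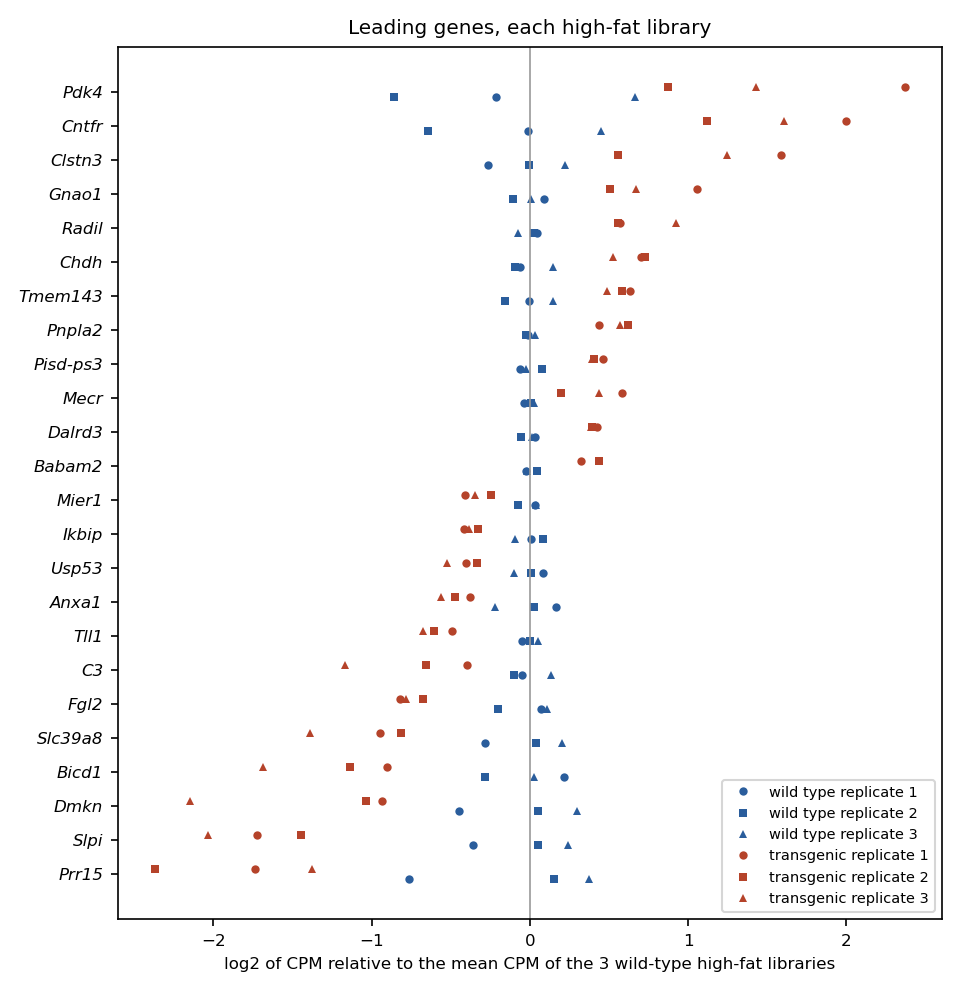
The 24 leading genes on high-fat diet. Each point is 1 library, placed by the log2 of its CPM relative to the mean of the 3 wild-type libraries (blue, transgenic in red, marker shape by replicate number). By the rule that chose the genes the colours do not overlap; Pdk4 and Cntfr lie farthest above 0, and Prr15 and Slpi farthest below.

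Among the genes at a lower level, Slpi stood first. Slpi encodes a secreted inhibitor of leukocyte serine proteases (chromosome 2, 164354070 to 164356507, minus strand, GRCm38). Its level was 17.8, 21.6 and 14.4 CPM in transgenic replicates 1 to 3 and 45.9, 61.1 and 69.7 CPM in wild-type replicates 1 to 3. The highest transgenic library thus lay below the lowest wild-type library by more than the spread within either group, and the means were 17.9 ± 3.59 and 58.9 ± 12.04 CPM (SD, n = 3 each), a 3.28-fold lower level. The log2 difference was -1.71, SE 0.33 (unadjusted p = 0.000222, adjusted p = 0.712 by edgeR's quasi-likelihood test). DESeq2 on the 6 libraries gave an adjusted p of 6.89e-15, the smallest of its calls, and Slpi was also called by DESeq2 on 12 libraries and by edgeR without the filter. Slc39a8, a plasma membrane importer of zinc and manganese (chromosome 3, 135816882 to 135888572, plus strand), stood at 33.3, 36.5 and 24.5 CPM in transgenic and 52.7, 66.1 and 74.0 CPM in wild-type libraries (-1.03, SE 0.24). It was called by the same alternatives as Slpi, and its libraries did not overlap. Fgl2, a fibrinogen-like protein with a membrane-bound prothrombinase form, was tight in both groups at 17.4, 19.2 and 17.8 against 32.3, 26.7 and 33.1 CPM (-0.76, SE 0.16).

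The complement component C3, the most abundant of the 12 leading genes at a lower level (chromosome 17, 57203967 to 57228136, minus strand), measured 2404, 2003 and 1404 CPM in transgenic and 3058, 2948 and 3472 CPM in wild-type libraries (-0.71, SE 0.18). Transgenic replicate 3 was the lowest. C1s2, a paralog of the complement protease C1s and also a DESeq2 call, stood at 11.8, 12.6 and 10.6 against 17.0, 17.3 and 19.2 CPM (-0.61, SE 0.20). It was called by DESeq2 in 1 of the 6 reduced fits, and its reads may be shared with its paralog. Anxa1, the glucocorticoid-induced annexin known for limiting neutrophil entry, measured 475, 445 and 418 CPM in transgenic and 694, 629 and 531 CPM in wild-type libraries (-0.47, SE 0.12), and wild-type replicate 3 came nearest to the transgenic range. Smaller in level were Dmkn, a secreted epithelial protein (-1.28, SE 0.31), and Prr15 (-1.77, SE 0.38), whose transgenic libraries averaged 0.797 ± 0.260 CPM. Exons of Prr15 overlap an opposite-strand gene over 8.81% of their length, and since the strand setting of the counting is not given here its level is uncertain. The same holds for other genes named here with 5.91% to 23.2% of their exon length so shared, namely Ccn2, Mest, Lipe, Csf1r, Gpd1, Aldh1l1, Acsl1, Ltbp2, Nrg4, Plk1, Gys1, Ebf2 and Cxcl10. The remaining leading genes at a lower level were Bicd1, a dynein adaptor (-1.20, SE 0.31), Tll1, a tolloid-like metalloprotease (-0.59, SE 0.14), Usp53 (-0.42, SE 0.11), Ikbip (-0.38, SE 0.10) and Mier1 (-0.33, SE 0.08).

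Cacna1e, a voltage-gated calcium channel subunit outside the leading genes, was called by DESeq2 in all 6 reduced fits. It stood at 25.1, 20.4 and 22.6 CPM in transgenic and 41.5, 37.1 and 44.5 CPM in wild-type libraries (-0.85, SE 0.33), with an unadjusted edgeR p of 0.0222.

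Mesothelial markers lay on the lower side as well. Of 15 listed markers, 14 had a negative log2 difference and 5 had all transgenic below all wild-type libraries (33.3%, against 6.44% of all genes), with a list median of -0.77. The summed level was 437, 559 and 256 CPM in transgenic and 571, 566 and 705 CPM in wild-type replicates 1 to 3, so transgenic replicate 3 held by far the least and replicate 2 nearly matched the wild-type libraries. Examples are the cell surface protein Msln (49.4, 53.9 and 25.2 against 56.9, 76.5 and 85.4 CPM, -0.77, SE 0.32), the mucin Muc16 (19.4, 20.2 and 9.17 against 27.4, 25.9 and 40.0 CPM, -0.93, SE 0.32) and the Wnt agonist Rspo1 (25.2, 28.9 and 14.5 against 36.9, 32.8 and 36.7 CPM, -0.63, SE 0.21). The list median was -0.45 without transgenic replicate 3 and -1.07 without transgenic replicate 2, where 13 of 15 markers lay below without overlap (86.7%, against 13.3% of all genes with that library left out). There were 9 such markers without wild-type replicate 1 (60%, against 11.6%) and 8 without wild-type replicate 2 (53.3%, against 11.1%). In a bulk library, fewer cells of a type and less RNA per cell cannot be told apart. In transgenic replicate 2 the mesothelial sum was 559 CPM against a wild-type minimum of 566 CPM. Slpi was 21.6 CPM there against a wild-type minimum of 45.9 CPM, and C3 was 2003 CPM against a wild-type minimum of 2948 CPM. Slpi and C3 were chosen among genes whose groups do not overlap, so their place below the wild-type minimum was fixed by that choice. No listed mesothelial marker was at 0 in all 6 libraries. The part of mesothelial RNA in the lower genes, Slpi and C3 among them, was not tested.

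Among the 12 leading genes at a higher level, Pnpla2 was the most abundant. It encodes adipose triglyceride lipase, which takes the first fatty acid off stored triglyceride (chromosome 7, 141455188 to 141460743, plus strand). Its level was 2966, 3359 and 3245 CPM in transgenic replicates 1 to 3 and 2171, 2158 and 2239.9 CPM in wild-type replicates 1 to 3. The wild-type libraries lay within a narrow band and every transgenic library lay above it, with means of 3190.2 ± 202 and 2189.5 ± 44.1 CPM (SD, n = 3 each). This is 1.46-fold (0.54, SE 0.13, unadjusted p = 0.00135, adjusted p = 0.712 by edgeR), and DESeq2 on the 6 libraries gave an adjusted p of 0.000127. Pnpla2 stayed a DESeq2 call whichever of the 6 libraries was left out.

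Acacb, outside the leading genes by its edgeR p, encodes the mitochondrial acetyl-CoA carboxylase, whose product malonyl-CoA holds back the import of fatty acids into mitochondria (chromosome 5, 114146321 to 114250761, plus strand). It measured 239, 199.999 and 201 CPM in transgenic and 102, 59.2 and 88.6 CPM in wild-type libraries, 2.56-fold (1.36, SE 0.37, adjusted p = 0.712 by edgeR and 5.13e-10 by DESeq2 on 6 libraries). Every transgenic library was above 190 CPM and every wild-type library below 110 CPM. Chdh, the mitochondrial choline dehydrogenase, stood at 73.1, 74.5 and 64.7 against 43.1, 42.2 and 49.8 CPM (0.65, SE 0.15). Its exons overlap the opposite-strand gene Cacna1d over 9.47% of their length. Clstn3 is a synaptic adhesion gene whose locus also makes an adipocyte protein of the endoplasmic reticulum, and it measured 61.2, 30.1 and 48.3 CPM in transgenic and 17.0, 20.4 and 23.8 CPM in wild-type libraries (1.19, SE 0.29). Counts per gene do not separate these products.

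Pdk4, the kinase that shuts off pyruvate dehydrogenase when fat is burned, measured 303, 108 and 158 CPM in transgenic and 50.7, 32.4 and 93.0 CPM in wild-type libraries (1.69, SE 0.41). Wild-type replicate 3 came close to the lowest transgenic library. Cntfr, the ligand-binding receptor subunit for ciliary neurotrophic factor, was low in level at 9.88, 5.37 and 7.53 against 2.46, 1.58 and 3.39 CPM (1.62, SE 0.33). Gnao1, a G protein alpha subunit, stood at 44.3, 30.2 and 33.9 against 22.6, 19.8 and 21.4 CPM (0.76, SE 0.18). The other leading genes at a higher level had differences between 0.40 and 0.69: the Rap effector Radil (0.69, SE 0.16), Tmem143 (0.57, SE 0.14), the mitochondrial enoyl-CoA reductase Mecr (0.41, SE 0.10), the BRCA1-A complex subunit Babam2 (0.40, SE 0.09), Dalrd3 (0.40, SE 0.10, with 15.6% of its exon length shared with the opposite-strand gene Wdr6) and Pisd-ps3 (0.42, SE 0.09). Pisd-ps3 is a pseudogene, and reads it shares with its parent gene make its level uncertain.

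Outside the leading genes and Acacb, DESeq2 called 5 more higher genes in all 6 reduced fits. Slc36a2, a proton-coupled transporter of small amino acids and a marker of brown fat, measured 357, 274 and 416 CPM in transgenic and 203, 174 and 209 CPM in wild-type libraries (0.84, SE 0.31). The linker histone gene H1f10 stood at 36.9, 31.4 and 32.4 against 12.2, 20.5 and 16.9 CPM (1.02, SE 0.37), and Tfr2, the iron-sensing relative of the transferrin receptor, at 13.4, 9.59 and 12.3 against 4.87, 6.38 and 4.92 CPM (1.13, SE 0.35). A pair of aldehyde dehydrogenase genes was also in the set, Aldh1l1, which oxidises formyl-tetrahydrofolate, at 231, 208 and 212 against 150.4, 159 and 159 CPM (0.47, SE 0.17) and Aldh1a7 at 131, 139.8 and 176 against 98.3, 89.5 and 86.8 CPM (0.70, SE 0.33). Aldh1a1, a close relative of Aldh1a7 and also a DESeq2 call (in 2 of the 6 reduced fits), went the other way at 53.2, 94.4 and 51.8 against 161, 109.8 and 109 CPM (-0.93, SE 0.33), and reads that these relatives share make both levels uncertain. Nrg4, an adipocyte-secreted ligand of the ErbB receptors, was called in 5 of the 6 reduced fits at 109.5, 121 and 111 against 61.6, 71.4 and 86.1 CPM (0.64, SE 0.21).

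The RefSeq promoter table of GRCm38.p6 held 34 windows for 21 of the 24 leading genes, each the 250 bases before a transcript start. They were searched on both strands for a pair of Smad elements, CAGACA and GGCGCC, which do not overlap each other in sequence. CAGACA was found in 5 of the 34 windows (14.7%, 4 genes), against 17.1% of all 32851 windows, and GGCGCC in 5 (14.7%, 4 genes), against 9.59% of all. For genes on which the results above turn, 1 window each is printed 5′ to 3′, in lower case with any match in capitals, and the single windows of Slpi and Pnpla2 held neither element. Slc39a8 and Clstn3 have 2 windows each and Chdh has 3; the window shown is the one with a match, and the others held neither element. A match describes the letters only and is not a measured site.
Slpi, chr2:164356508-164356757, minus strand: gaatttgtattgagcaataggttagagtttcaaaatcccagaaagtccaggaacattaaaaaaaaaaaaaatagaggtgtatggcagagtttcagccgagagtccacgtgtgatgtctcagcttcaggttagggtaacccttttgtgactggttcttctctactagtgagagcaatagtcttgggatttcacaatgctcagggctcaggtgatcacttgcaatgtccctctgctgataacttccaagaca
Slc39a8, chr3:135825407-135825656, plus strand: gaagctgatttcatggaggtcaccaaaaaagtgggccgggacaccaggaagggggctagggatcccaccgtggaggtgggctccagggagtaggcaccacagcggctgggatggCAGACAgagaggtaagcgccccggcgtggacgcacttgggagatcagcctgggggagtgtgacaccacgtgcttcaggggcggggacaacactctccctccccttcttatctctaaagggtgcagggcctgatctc
Pnpla2, chr7:141454938-141455187, plus strand: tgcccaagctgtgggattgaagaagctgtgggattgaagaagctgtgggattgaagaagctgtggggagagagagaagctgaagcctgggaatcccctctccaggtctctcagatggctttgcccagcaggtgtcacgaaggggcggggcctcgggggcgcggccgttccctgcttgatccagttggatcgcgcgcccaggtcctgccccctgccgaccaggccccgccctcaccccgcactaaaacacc
Clstn3, chr6:124462745-124462994, minus strand: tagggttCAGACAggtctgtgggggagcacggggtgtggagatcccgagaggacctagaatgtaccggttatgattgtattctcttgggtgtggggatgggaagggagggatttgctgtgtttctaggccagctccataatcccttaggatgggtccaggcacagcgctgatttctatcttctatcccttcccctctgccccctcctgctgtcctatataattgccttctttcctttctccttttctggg
Chdh, chr14:30008750-30008999, plus strand: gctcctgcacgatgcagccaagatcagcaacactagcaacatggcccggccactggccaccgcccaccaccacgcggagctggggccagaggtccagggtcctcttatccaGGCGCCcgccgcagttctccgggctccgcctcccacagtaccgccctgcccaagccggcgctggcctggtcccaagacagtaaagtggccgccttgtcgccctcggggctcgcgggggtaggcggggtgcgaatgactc

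The lists of fat-handling genes lay to the higher side. In the fatty acid oxidation list all 12 measured genes had a positive difference and 8 had every transgenic library above every wild-type library, where 7.52% of all genes did, and the list median was 0.58 against 0.0015 over all genes. None passed edgeR's test. Ppara, the fatty acid-sensing receptor that drives these genes, measured 55.7, 28.9 and 27.4 CPM in transgenic and 16.4, 15.4 and 20.7 CPM in wild-type libraries (1.09, SE 0.35). Cpt2, the inner carnitine transferase, stood at 274, 216 and 205 against 147, 152 and 169 CPM (0.57, SE 0.19), and Hadha, a subunit of the trifunctional protein, at 686, 425 and 483 against 367, 297 and 353 CPM (0.65, SE 0.24). Transgenic replicate 1 was the highest library for each of these 3 genes, all of which DESeq2 called on 6 libraries. Acadm, the medium-chain dehydrogenase, read 537, 369 and 424 against 304, 289 and 343 CPM (0.51, SE 0.17). Cpt1a, the outer carnitine transferase, overlapped with a difference of 0.02, SE 0.17. Without transgenic replicate 1 the list median was 0.29. The count above was again 8 of 12 genes, where 12.8% of all genes were above with that library left out. Genes that separate in all 6 libraries must also separate in fewer, so this count could not fall.

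The nuclear-encoded respiratory chain also lay to the higher side, by less. Of 26 genes, 25 had a positive difference and 8 lay above without overlap (30.8%, against 7.52% of all genes), with a median of 0.30. Sdhc, a membrane anchor of succinate dehydrogenase, measured 199, 167 and 182 CPM in transgenic and 124, 127 and 141 CPM in wild-type libraries (0.49, SE 0.13), and Uqcrc1, a core subunit of complex III, 441, 281 and 295 against 199, 221 and 255 CPM (0.59, SE 0.18). The median was 0.09 without transgenic replicate 1. The count above, which could not fall, was again 8 of 26 genes with that library left out (30.8%, against 12.8% of all genes). Without wild-type replicate 3, 17 of 26 did (65.4%, against 13.1%). Outside the lists, DESeq2 called the citric acid cycle enzymes Cs (0.54, SE 0.18) and Ogdh (0.52, SE 0.14) and the cytochrome c1 gene Cyc1 (0.67, SE 0.20).

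Thermogenic genes varied widely between libraries of a genotype. Ucp1, the uncoupling protein of brown and beige fat, measured 228, 37.9 and 20.3 CPM in transgenic replicates 1 to 3 and 0.378, 0.0879 and 50.9 CPM in wild-type replicates 1 to 3. Wild-type replicate 3 was above 2 of the transgenic libraries, and the log2 difference was 2.48, SE 1.75. Cidea, a lipid droplet protein rich in brown fat, also had transgenic replicate 1 highest and wild-type replicate 3 next, at 243, 25.3 and 37.7 against 5.01, 1.71 and 43.5 CPM (2.61, SE 1.36). The list of 11 measured genes had 10 positive differences and a median of 1.87, of which 1 gene did not overlap (9.09%, against 7.52% of all genes), and these values turned on single libraries. Without transgenic replicate 1 the median was 0.56, with 1 gene above, and Ucp1 differed by 0.77. Without wild-type replicate 3 the median was 2.59, 8 of 11 genes lay above (72.7%, against 13.1% of all genes) and Ucp1 differed by 8.67. The count was also higher without transgenic replicate 2 (5 genes, 45.5%, against 13.4% of all genes) and without transgenic replicate 3 (3 genes, 27.3%, against 12.5%). Without wild-type replicate 1 it was 2 genes (18.2%, against 12.2%). Summed levels were 818, 206 and 263 CPM in transgenic and 118, 98.9 and 248 CPM in wild-type replicates 1 to 3. Transgenic replicate 1, the highest here, was also the highest for fatty acid oxidation and the respiratory chain, and the part of thermogenic cells in those lists was not tested.

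**Figure D2:**
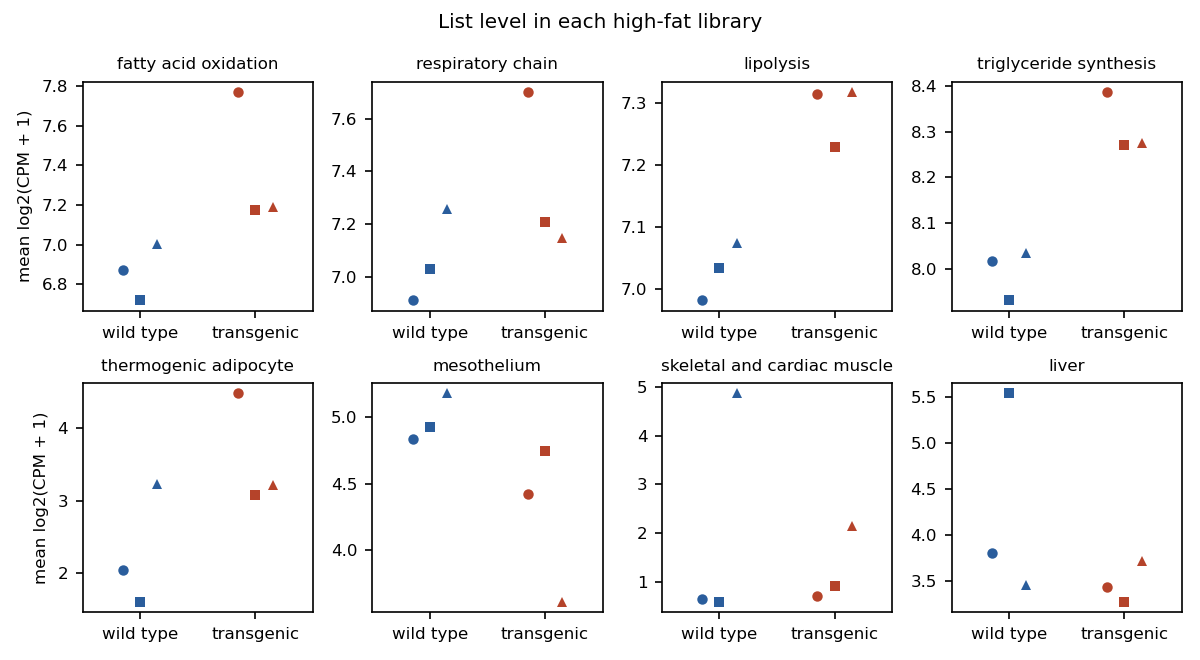
Level of 8 gene lists in each high-fat library, as the mean of log2(CPM + 1) over the measured genes (wild type blue, transgenic red, marker shape by replicate number; the vertical axes differ and do not start at 0). Transgenic replicate 1 is highest for fatty acid oxidation, the respiratory chain and thermogenic genes, wild-type replicate 3 for muscle and wild-type replicate 2 for liver.

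About as many lipolysis as triglyceride synthesis genes lay to the higher side, by small amounts. Of 13 lipolysis genes 7 were above without overlap (53.8%, median 0.22). Of 11 triglyceride synthesis genes 6 were (54.5%, median 0.30), where 7.52% of all genes were above. No gene of either list lay below. Beside Pnpla2, the beta-1 adrenergic receptor gene Adrb1 measured 14.4, 9.69 and 10.9 CPM in transgenic and 7.94, 6.86 and 7.66 CPM in wild-type libraries (0.64, SE 0.21), and Plin1, the lipid droplet coat protein, 1881, 1664 and 1819 against 1406, 1611 and 1582 CPM (0.22, SE 0.12). Lipe, the hormone-sensitive lipase, differed by 0.18, SE 0.12. In triglyceride synthesis, Dgat1, which adds the last fatty acid, stood at 321, 297 and 298 against 253, 249.9 and 256 CPM (0.27, SE 0.11), and Pck1, a source of glycerol 3-phosphate, at 2733, 2367 and 1981 against 1759, 1613 and 1892 CPM (0.43, SE 0.19). Gpd1, the glycerol 3-phosphate dehydrogenase, is the 1 DESeq2 call of that list (0.66, SE 0.37). The lipolysis median ran from 0.19 to 0.25 and that of triglyceride synthesis from 0.22 to 0.34 when any 1 of the 6 libraries was left out.

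Fatty acid synthesis depended more on a single library. Of 18 genes 16 had a positive difference and 6 lay above without overlap (33.3%, against 7.52% of all genes). The list median was 0.31 and became 0.13 without transgenic replicate 3. Fasn, the fatty acid synthase, measured 4487, 5407 and 9229.6 CPM in transgenic and 4053, 3611 and 2586 CPM in wild-type libraries (0.90, SE 0.56). Its groups did not overlap, yet replicate 3 of the transgenic group stood far above the rest. Slc25a1, the mitochondrial citrate carrier and a DESeq2 call, measured 389, 374 and 508 against 292, 267 and 259 CPM (0.64, SE 0.32). Thrsp, a lipogenic nuclear protein, overlapped, with wild-type replicate 3 at 529.5 CPM (0.58, SE 0.52). Acsl1, which activates fatty acids for either use, read 3174, 2943 and 3088 against 2508, 2028 and 1774 CPM (0.54, SE 0.19).

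Adipocyte identity markers lay slightly to the higher side. Of 15 markers 7 lay above (46.7%, against 7.52% of all genes) and none below. Lists share members, and Plin1 counts both here and in the lipolysis list. The mean of log2(CPM + 1) over the list was 11.11 to 11.15 in transgenic and 10.98 to 11.06 in wild-type libraries. The median difference was small at 0.08, and it ran from 0.02 to 0.20 when 1 library was left out. The master regulator Pparg differed by -0.14, SE 0.12, Cebpa by 0.29, SE 0.13 and Adipoq by -0.19, SE 0.17. The adipogenic regulator Ebf2 had 3 tight libraries in each group, 31.0, 26.5 and 28.3 against 24.8, 19.5 and 21.6 CPM (0.38, SE 0.11). Lep, the satiety hormone that tracks fat cell size, overlapped at 1644, 1857 and 3475 against 2778, 2124 and 2005 CPM (0.01, SE 0.27). Other genes linked to fat expansion overlapped: the imprinted gene Mest differed by -0.02, SE 0.47, the natriuretic peptide clearance receptor Npr3 by -0.14, SE 0.13 and Fgf13 by 0.09, SE 0.15. The expansion list of 12 genes had 0 above and 2 below (16.7%, against 6.44% of all genes), with a median of -0.05. The lower ones were the Wnt inhibitor Sfrp5 (-0.30, SE 0.36) and the caveolin Cav2 (-0.16, SE 0.12). Without transgenic replicate 2, 5 lay below (41.7%, against 13.3% of all genes). Of 13 insulin signalling genes 4 lay above (30.8%, against 7.52% of all genes). They were led by the adaptor Irs2 at 137, 132 and 120.5 against 91.4, 108 and 89.4 CPM (0.43, SE 0.15).

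With all 6 libraries, at most 2 genes of a TGF-b list lay above without overlap and at most 1 below. In lists this small such counts say little beside the shares of all genes (7.52% above, 6.44% below). The counts rose when some single libraries were left out, a setting in which a count cannot fall. Tgfb1, of which transgene and endogenous reads cannot be told apart, measured 75.7, 75.0 and 82.3 CPM in transgenic and 67.8, 69.0 and 63.7 CPM in wild-type libraries (0.22, SE 0.09, adjusted p = 0.714 by edgeR). The groups did not overlap, and the level is no check of the genotype labels because the transgene is driven in the heart. Among 13 ligands and latency proteins 2 were above and 1 below (15.4% and 7.69%, against 7.52% and 6.44% of all genes), with a median of -0.17. These were Tgfb1 and the latency protein gene Ltbp2, at 43.3, 41.2 and 48.1 against 33.8, 25.1 and 26.5 CPM (0.63, SE 0.24), and on the lower side the integrin Itgb8, which frees latent TGF-b, at 1.15, 1.92 and 1.65 against 2.84, 2.02 and 4.92 CPM (-1.05, SE 0.42). None of the 14 receptors and Smads was without overlap, and their median was 0.04. Without wild-type replicate 2, 4 of the 14 lay above (28.6%, against 11.7% of all genes), and without transgenic replicate 1, 2 did (14.3%, against 12.8%). Of the ligands and latency proteins 4 of 13 (30.8%) lay below without wild-type replicate 2 (against 11.1% of all genes) or without transgenic replicate 2 (against 13.3%). Without wild-type replicate 1, 3 lay below (23.1%, against 11.6%). Tgfbr1 differed by -0.21, SE 0.14 and Smad2 by 0.11, SE 0.09.

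Of 21 known TGF-b targets 2 lay above and 0 below (9.52%, against 7.52% of all genes above), with a median of 0.16. Without wild-type replicate 2 there were 5 above (23.8%, against 11.7% of all genes), and without transgenic replicate 3 there were 4 (19%, against 12.5%). With all libraries the 2 were the feedback inhibitor Pmepa1, at 638, 511 and 752 against 452, 396 and 426 CPM (0.58, SE 0.28), and the matrix protein Postn, at 410.2, 369 and 335 against 254, 283 and 274 CPM (0.46, SE 0.34). Both are DESeq2 calls, each in 1 of the 6 reduced fits. The classic targets Ccn2 (0.47, SE 0.47) and Col1a1 (0.18, SE 0.15) overlapped, and the difference of Ccn2 ran from 0.17 without wild-type replicate 2 to 0.94 without wild-type replicate 3. Timp1, a metalloprotease inhibitor, had the smallest p of the list at 16.1, 6.52 and 5.58 against 13.1, 33.8 and 28.4 CPM (-1.42, SE 0.44), on the lower side and with overlap at transgenic replicate 1. Of 31 collagen and matrix genes 2 lay above and 2 below, with a median of 0.13. Each count is 6.45% of the list, near the 7.52% above and 6.44% below of all genes. Without wild-type replicate 2, 11 lay above (35.5%, against 11.7% of all genes), and without transgenic replicate 3, 7 did (22.6%, against 12.5%) with a median of 0.05. Without transgenic replicate 2, 4 lay above and 5 below (12.9% and 16.1%, against 13.4% and 13.3% of all genes). With all libraries the lower ones were Mmp14, a membrane-bound collagenase (-0.50, SE 0.24), and Lum, a small proteoglycan that binds collagen fibrils (-0.44, SE 0.39), and the higher ones were elastin, Eln (0.42, SE 0.25), and the network collagen Col8a1 (0.36, SE 0.16).

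**Figure D3:**
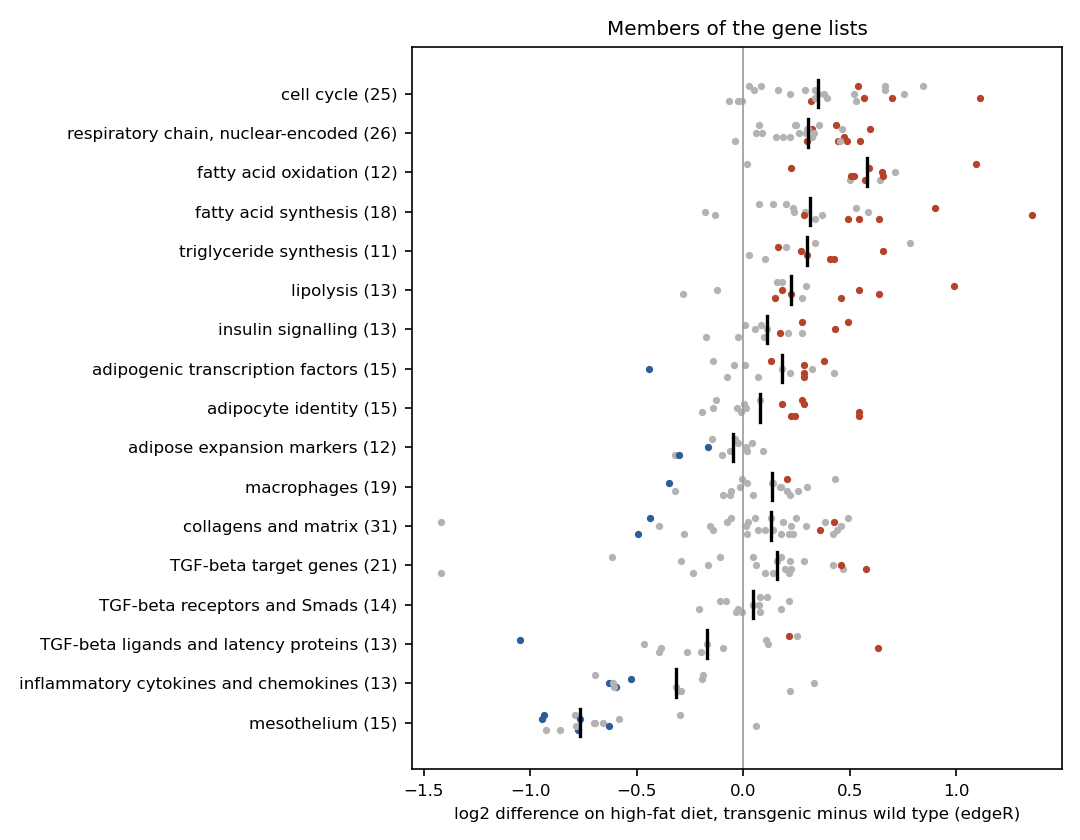
Log2 differences of list members on high-fat diet, transgenic minus wild type from edgeR, with the number of measured genes after each list name. Red points have all 3 transgenic libraries above all 3 wild-type libraries, blue points all below, grey points overlap, and the black bar is the list median. Fatty acid oxidation lies to the right with a median of 0.58, mesothelium to the left with -0.77, and the receptors and Smads have no point without overlap.

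Most of the listed cytokines and chemokines lay on the lower side. Of these 13 genes 11 had a negative difference and 3 lay below without overlap (23.1%, against 6.44% of all genes), with a median of -0.32. Their summed levels overlapped, at 378 to 584 CPM in transgenic and 456 to 544 CPM in wild-type libraries. The monocyte attractant Ccl7 measured 9.50, 7.53 and 8.33 CPM in transgenic and 11.0, 13.3 and 12.2 CPM in wild-type libraries (-0.53, SE 0.19), and the interferon-induced Cxcl10 1.49, 2.73 and 1.94 against 3.54, 2.81 and 3.20 CPM (-0.63, SE 0.28). Ccl2, the main monocyte attractant of obese fat, overlapped (-0.31, SE 0.27). The 19 macrophage markers were split, with 1 above (the growth factor receptor Csf1r, 0.20, SE 0.15) and 1 below (the costimulatory ligand Cd86, -0.35, SE 0.20). Each is 5.26% of the list, against 7.52% of all genes above and 6.44% below. The macrophage median was 0.14, and -0.03 without transgenic replicate 1. Itgax, a marker of inflammatory macrophages, overlapped at 9.74, 6.38 and 9.02 against 16.5, 8.40 and 5.85 CPM (-0.29, SE 0.33). None of 18 interferon-stimulated genes was without overlap (median -0.04), but without transgenic replicate 2, 7 lay below (38.9%, against 13.3% of all genes) with a median of -0.29. In that setting 6 of the 13 cytokines and chemokines lay below (46.2%). Without transgenic replicate 3, 5 of the 19 macrophage markers lay above (26.3%, against 12.5%). All 7 B and plasma cell genes had a positive difference (median 0.68). Their sums were 5.95 to 38.3 CPM in transgenic and 9.17 to 29.8 CPM in wild-type libraries. Without transgenic replicate 1 all 7 lay above (100%, against 12.8% of all genes). Of 15 dendritic cell and class II genes 9 had a positive difference, and 8 lay above without that library (53.3%). Of 11 T and NK cell genes 7 were negative, as were 6 of 8 neutrophil and mast cell genes.

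Cell cycle genes lay to the higher side at low levels. Of 25 genes 22 had a positive difference and 5 lay above (20%, against 7.52% of all genes), with a median of 0.35, and 0.56 without transgenic replicate 3, where 16 lay above (64%, against 12.5%). Without wild-type replicate 3, 8 lay above (32%, against 13.1%). The proliferation marker Mki67 measured 15.3, 20.1 and 13.7 CPM in transgenic and 11.5, 11.2 and 11.1 CPM in wild-type libraries (0.54, SE 0.26). Foxm1, a transcription factor of mitosis, stood at 4.75, 6.76 and 6.73 against 3.54, 3.69 and 3.99 CPM (0.70, SE 0.24), and the mitotic kinase gene Plk1 at 3.17, 3.26 and 1.79 against 1.09, 1.45 and 1.25 CPM (1.11, SE 0.35). Haemoglobin transcripts, which mark blood in the tissue, were also higher: Hba-a1 measured 312, 404 and 506 against 214, 229.8 and 311 CPM (0.69, SE 0.24), and the 9 erythroid genes measured summed to 436 to 773 CPM in transgenic and 323 to 459 CPM in wild-type libraries. Its part in the cell cycle values was not tested. Reads of Hba-a1 cannot be fully told from those of its near-identical copy Hba-a2.

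The same contrast was available on control diet, with separate libraries and thus no shared controls. There edgeR called 6 of 16550 genes (0.0363%), and 1816 (11%) had an unadjusted p below 0.05. Control-diet groups did not overlap for 6.5% of genes on the higher and 7.56% on the lower side. The interaction, which tests whether the transgene difference is larger on one diet, gave 0 calls of 16550 by edgeR (929 genes, 5.61%, at an unadjusted p below 0.05, and a smallest adjusted p of 0.557), 23 by DESeq2 on 12 libraries and 53 by edgeR without the filter. Many of the 53 are skeletal muscle genes, whose transcripts were high in wild-type high-fat replicate 3. The part of carried-over muscle in these calls was not tested. Of the 24 leading genes, 9 of the 12 higher ones and 7 of the 12 lower ones kept their sign on control diet, where 58.1% of all genes had the same sign on both diets. Anxa1 is the only leading gene called on control diet, at 278, 246 and 273 CPM in transgenic and 454, 489 and 523 CPM in wild-type libraries (-0.88, SE 0.12, adjusted p = 0.0315 by edgeR), and that call was lost in 8 of the 12 fits without 1 library (highest adjusted p = 0.171). Chdh differed there by 0.61, SE 0.15, Pnpla2 by 0.30, SE 0.13 and Pdk4 by 0.94, SE 0.41, and none of these 3 passed (adjusted p = 0.182, 0.423 and 0.423). The interaction was 0.04 for Chdh and 0.24 for Pnpla2 (unadjusted p = 0.837 and 0.222 by edgeR).

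Other leading genes had smaller differences on control diet. The interaction contains the high-fat difference by which the leading genes, and Tfr2, were chosen. Its size and its unadjusted p for them are therefore biased by that choice. C3 measured 3447, 2812 and 3364 CPM in transgenic and 3151, 2727 and 2903 CPM in wild-type control-diet libraries (0.13, SE 0.18), and its interaction was -0.84 (unadjusted p = 0.00648, adjusted p = 0.750 by edgeR). Fgl2 differed by 0.02, SE 0.16 on control diet, with an interaction of -0.77 (unadjusted p = 0.00468, adjusted p = 0.744). Clstn3 differed by 0.18, SE 0.29 and Gnao1 by -0.21, SE 0.19, with interactions of 1.01 and 0.97 (adjusted p = 0.826 and 0.736). Slpi differed by -0.58, SE 0.33 on control diet, where its libraries overlapped at 23.6, 16.0 and 22.4 against 30.6, 14.6 and 47.2 CPM, and its interaction was -1.13 (adjusted p = 0.833). Tfr2, one of the genes that DESeq2 called in all reduced fits, had the opposite sign on control diet, at 6.95, 7.01 and 3.57 CPM in transgenic and 9.16, 18.9 and 6.66 CPM in wild-type libraries (-0.99, SE 0.35, unadjusted p = 0.0157, adjusted p = 0.334 by edgeR). Its groups overlapped there. Its interaction was 2.11 (adjusted p = 0.618 by edgeR, 0.0264 by DESeq2 on 12 libraries and 0.0258 by edgeR without the filter). No interaction of a leading gene passed edgeR's adjusted threshold, so a difference between the diets was not shown for any of them.

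**Figure D4:**
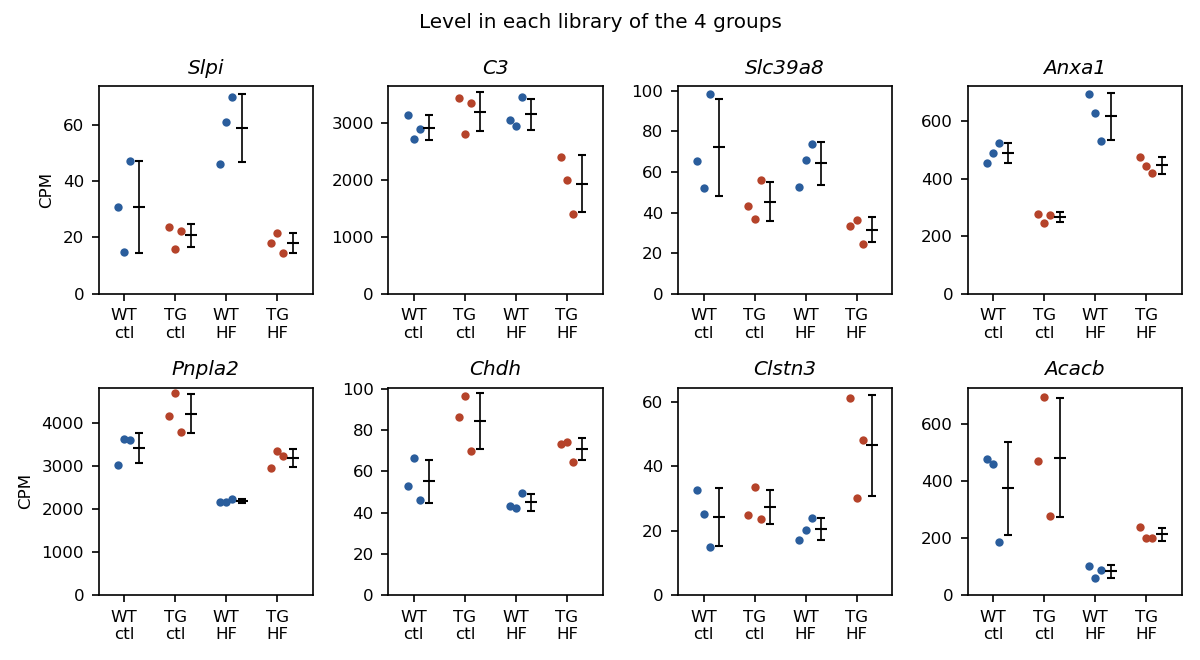
CPM of 8 genes in each of the 12 libraries (WT, wild type; TG, transgenic; ctl, control diet; HF, high-fat diet), with the group mean and SD (n = 3) as a bar beside the points. Anxa1, Pnpla2 and Chdh separate the genotypes on both diets, whereas C3 and Clstn3 overlap on control diet.

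**Figure D5:**
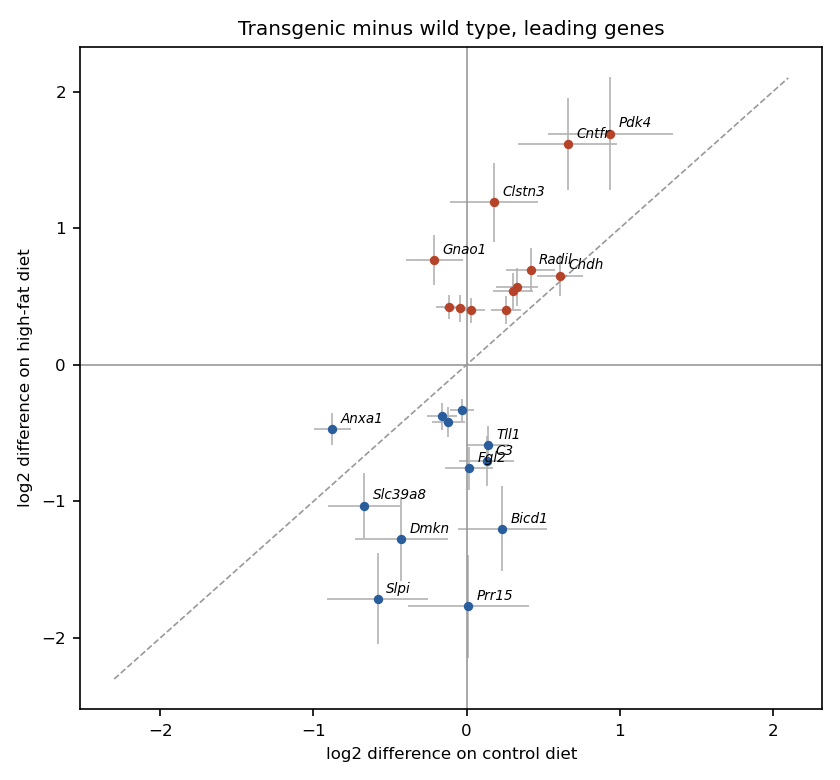
Transgenic minus wild-type log2 difference of the 24 leading genes on high-fat diet against that on control diet, with SE bars and a dashed line of equal difference (genes near the centre are not labelled). The vertical spread follows from how the genes were chosen, and only the horizontal position is free of that choice: Anxa1 lies farthest left at -0.88 and Pdk4 farthest right at 0.94.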

How the data were processed

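RNA-seq of visceral white adipose tissue gave 1 file per library of whole-number counts per gene, which the authors deposited after alignment with HISAT2 2.2.0 to mm10 and counting with HTSeq 2.0, per the submitters' processing notes. Neither the gene annotation nor the strand setting was given in the sources used here. The 5 summary entries of each file (17.1% to 19.0% of reads) were left out. The authors' deposited table of this contrast (DESeq2 1.32.0, per the submitters' processing notes) holds, per the file headers, a mean signal, log2 fold changes with their errors, a test score and p-values.

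The counts of all 12 libraries were fitted with edgeR 4.0.16 (R 4.3.3; quasi-likelihood, TMM scaling, 8 residual degrees of freedom), after a filter on low counts (minimum 10, total 15), with Benjamini-Hochberg adjustment over 16550 genes at 0.05. CPM values are TMM-scaled. The SE of an edgeR difference is its absolute log2 value divided by the square root of the F statistic of the quasi-likelihood test. Alternatives used DESeq2 1.42.0, limma 3.58.1 (voom), other scaling, no filter, a replicate block and each library left out. The scripts were tested on simulated data. Groups came from the genotype and diet labels.

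Named genes are the 12 with the smallest p per direction (at least 1 CPM, no overlap, no predicted genes), a panel of 21 genes (not all reported here) and up to 3 genes per list. The 42 lists hold 626 entries, of which 571 were tested. Some genes are in more than 1 list, such as Plin1 (adipocyte identity and lipolysis) and Timp1 (TGF-b targets and collagens). The lists are therefore not independent of each other. The members and lists were chosen with earlier results of these data known, and the DESeq2 calls and further list members named outside the rule were chosen after their values were seen. Positions and promoters are from RefSeq (GRCm38.p6, 48908 symbols matched, 96.7%).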

Additional observations from a re-analysis of the deposited data

How the results depend on the processing

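On high-fat diet, edgeR called 0 genes with all 12 libraries, with the 6 high-fat libraries alone, with median-of-ratios size factors, with the replicate block and without any 1 library, as did limma-voom, while DESeq2 on 12 libraries called 9, DESeq2 on 6 libraries 73, and edgeR without the filter 5. The DESeq2 count on 6 libraries ran from 29 to 195 with 1 library left out. On control diet the 6 calls became 256 with DESeq2 on 12 libraries, 269 without the filter, 0 with the replicate block and 0 to 58 with 1 library left out, the most without wild-type control-diet replicate 3. The 0 interaction calls became 23 with DESeq2, 53 without the filter and 0 to 8 with 1 library left out. Many of the 53 are skeletal muscle genes, such as Myh1 (-13.7), Ckm (-12.0) and Atp2a1 (-11.5). Muscle transcripts were high in wild-type high-fat replicate 3. The 23 included S100b (2.24), Fgf13 (1.21) and Npr3 (0.78), at adjusted p = 0.00104, 0.00104 and 0.00756 by DESeq2 on 12 libraries. The cause of these shifts was not tested. Same-numbered transgenic and wild-type high-fat libraries deviated from their group means with correlations of -0.032, -0.025 and -0.023, and none correlated best with its own number, so the replicate block rests on a shared number only. Near 0, some differences changed sign. Lep became -0.11 with limma-voom, -0.00345 with the replicate block and -0.40 to 0.20 without 1 library. Mest became 0.015 with limma-voom. With 1 library left out, the ranges that included a change of sign were -0.32 to 0.36 for Mest, -0.57 to 0.23 for Itgax, -0.014 to 0.27 for Fgf13, -0.067 to 0.087 for Cpt1a, -2.03 to 0.66 for Gpnmb and -1.56 to 0.77 for Mmp12. The DESeq2 fits and the counts of non-overlapping list members without 1 library were chosen after seeing the data. The biological coefficient of variation over all genes was 20.1%.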

Other observations

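Some gene groups outside the comparisons above also had members whose high-fat groups did not overlap, with no gene passing edgeR's test. Both glycogen synthase genes were higher in transgenic tissue on high-fat diet, Gys1 at 146, 130.2 and 149 against 103, 99.5 and 109 CPM (0.45, SE 0.12) and Gys2 at 145, 142 and 185 against 98.3, 117 and 95.6 CPM (0.60, SE 0.24). On control diet Gys2 had the opposite sign (-0.76, SE 0.24, adjusted p = 0.281 by edgeR), whereas Gys1 kept its sign (0.27, SE 0.12). The interaction of Gys2 was 1.36 (adjusted p = 0.680 by edgeR and 0.0258 by edgeR without the filter). Of 16 measured adipokine genes 3 lay above and 2 below (18.8% and 12.5%, against 7.52% and 6.44% of all genes), with a median of -0.06. Without transgenic replicate 2, 6 lay below (37.5%, against 13.3% of all genes). One of the higher ones is Nampt, a secreted enzyme of NAD synthesis, at 133, 127 and 100.4 against 86.2, 76.6 and 99.7 CPM (0.45, SE 0.17), and another is Angptl4, an inhibitor of lipoprotein lipase, at 879.5, 935 and 1013 against 792, 714 and 744 CPM (0.33, SE 0.16). Of 10 Schwann cell markers 4 lay above (40%, against 7.52% of all genes), with a median of 0.08. S100b, a calcium-binding protein, stood at 21.4, 11.9 and 12.3 against 8.18, 8.18 and 10.1 CPM (0.78, SE 0.28).

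Lipid-associated macrophage genes turned on wild-type replicate 1. The scavenger cell protein Gpnmb measured 38.3, 12.2 and 17.2 CPM in transgenic and 151, 18.8 and 9.84 CPM in wild-type libraries (-1.40, SE 0.78), and the elastase Mmp12 21.5, 14.1 and 23.3 against 104, 12.7 and 10.3 CPM (-1.10, SE 0.72). The median of the 15 genes was -0.26, and 0.14 without that library.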
